A study of Rattus norvegicus with 6 samples.

Results

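RNA-seq of rat trigeminal ganglia was read for 10 genes whose products fold and modify collagen in the endoplasmic reticulum: Serpinh1, P4ha1, P4ha2, P4hb, P3h1, Crtap, Plod1, Plod2, Plod3 and Colgalt1. All 10 were found by symbol among the 29884 genes of the count table, and all 10 were among the 16478 genes that passed the filter on low counts. The genes were chosen by name around Serpinh1 and P4ha1, which were selected on their higher levels in conduit than in injury libraries in these same data. For that reason the conduit and injury values of the members are given as a description, with no test, and they support nothing beyond themselves.

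The injury group held 3 ganglion samples from wild-type rats with chronic constriction of the infraorbital nerve (CCI-ION), a model of trigeminal neuralgia. The conduit group held 3 samples from wild-type rats with the same constriction that were then treated with SFM-Gel @NGC-Light, which the series title describes as a nerve conduit driven by light. Both groups were therefore constricted, and no uninjured group was analysed here. The labels give no strain, sex or age, do not say whether animals were pooled, and do not say that each sample came from a separate animal, so the spread between samples may be technical. Each sample is labelled with its own day after injury, 14, 15 and 16 for injury and 17, 18 and 19 for conduit. These labels go up by 1 from sample to sample, and they may not be real days of sampling. Of the 3 labelled batches, batch 1 is made of injury samples 1 and 2, batch 3 of conduit samples 2 and 3, and batch 2 of the remaining sample of each group. Day, and batch outside batch 2, cannot be told apart from treatment.

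The libraries held between 40172473 and 41903629 counts. All 12 sensory neuron markers and all 7 satellite glia markers on fixed lists were detected, which goes with the tissue label. Markers of other tissues were high in some libraries. Skeletal muscle markers summed to 9181 CPM, counts scaled to a common library size, in conduit sample 2 and to 519.5 CPM in injury sample 1, against 7.97 to 17.8 CPM in the other libraries. Pituitary hormone genes summed to 6112 CPM in injury sample 1 and to at most 16.9 CPM elsewhere. Bone and cartilage markers summed to 322 and 386 CPM in injury samples 2 and 3 and to between 76.5 and 112 CPM in the other libraries.

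Collagen is made as chains that enter the endoplasmic reticulum, where prolyl and lysyl residues are hydroxylated before 3 chains wind into a triple helix. Prolyl hydroxylation lets the helix hold at body temperature, lysyl hydroxylation prepares sites for sugars and crosslinks, and the chaperone HSP47, the product of Serpinh1, binds the folded helix until it leaves for the Golgi. The hydroxylases need molecular oxygen, iron, 2-oxoglutarate and ascorbate. In a sensory ganglion collagen comes from fibroblasts, vessel cells and Schwann cells, which lay down a basement membrane around each axon. In whole tissue, fewer cells of a type and less RNA per cell cannot be told apart.

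Serpinh1 was the member with the largest difference between the groups, and P4ha1, the catalytic subunit of the main prolyl 4-hydroxylase, had the next largest. Plod3, which adds both hydroxyl and sugar to lysine, was the only other member whose groups did not overlap. The remaining 7 members overlapped between groups, and 3 of them, P4ha2, Plod2 and Colgalt1, had lower means in conduit. Member values are CPM scaled by the trimmed mean of M-values (TMM). Each log2 fold change sets conduit against injury, with the standard error (SE) of the fit.

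Serpinh1 encodes HSP47, a chaperone dedicated to collagen. Its level was 245, 245 and 269 CPM across the injury libraries and 413, 384 and 379 CPM across the conduit libraries, each in the order of sample numbers 1 to 3. Every conduit library lay above every injury library, with a gap of 109.9 CPM between the lowest conduit and the highest injury library. The means were 253 ± 13.7 CPM in injury and 392 ± 18.5 CPM in conduit (SD, n = 3), a log2 fold change of 0.63 (SE 0.08), or 1.55-fold. The spread within a group was small, with a coefficient of variation of 5.42% in injury and 4.72% in conduit.

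**Figure D1:**
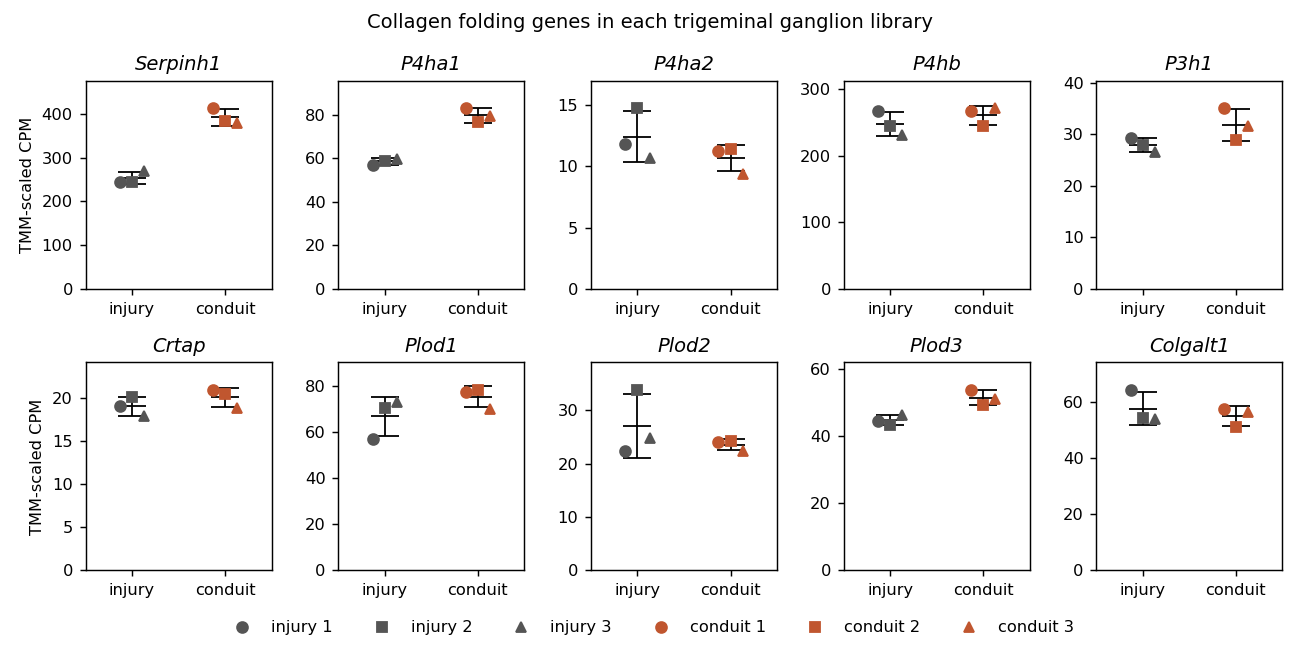
TMM-scaled CPM (vertical axis, from 0) of the 10 genes in the 3 injury libraries (grey) and the 3 conduit libraries (orange), with marker shape for the sample number and black bars for the mean ± SD. Serpinh1, P4ha1 and Plod3 have every conduit library above every injury library, and Plod2 and P4ha2 have their highest value in injury sample 2.

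Prolyl 4-hydroxylase is a tetramer of catalytic alpha subunits, encoded by P4ha1, P4ha2 or P4ha3, with beta subunits. The beta subunits are protein disulfide isomerase, encoded by P4hb. P4ha3 is not a member and was read only among the other genes of collagen folding. P4ha1 stood at 57.0, 58.8 and 59.9 CPM in injury and at 83.1, 76.5 and 79.7 CPM in conduit. Its groups did not overlap, and the means were 58.6 ± 1.44 and 79.7 ± 3.30 CPM (log2 fold change 0.45, SE 0.07, or 1.36-fold). P4ha2, the second catalytic subunit, went the other way in its mean, at 11.8, 14.7 and 10.7 CPM in injury and 11.2, 11.4 and 9.39 CPM in conduit. Its groups overlapped and its log2 fold change was -0.22 (SE 0.16), -0.08 without injury sample 2, which was the highest library. P4hb, which also serves as a general disulfide isomerase, overlapped between groups, at 267, 245 and 231 CPM in injury and 267, 244 and 272 CPM in conduit (log2 fold change 0.07, SE 0.09).

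The prolyl 3-hydroxylase P3h1 works in a complex with Crtap, a helper protein with no enzyme activity, and cyclophilin B, the product of Ppib. P3h1 stood at 29.2, 27.8 and 26.6 CPM in injury and at 35.1, 28.9 and 31.5 CPM in conduit. Conduit sample 2 lay below injury sample 1, so the groups overlapped, by 0.357 CPM, and the log2 fold change was 0.19 (SE 0.10). Crtap stood at 19.1, 20.2 and 17.9 CPM in injury and at 21.0, 20.5 and 18.9 CPM in conduit, a log2 fold change of 0.08 (SE 0.10). Injury sample 2 was above conduit sample 3 for Crtap.

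Lysyl hydroxylases come in 3 forms with different targets: Plod1 and Plod3 act mainly on the helical part of the chain, and Plod2 on the short end pieces that form crosslinks. Plod1 stood at 56.9, 70.5 and 72.8 CPM in injury and at 77.4, 78.3 and 70.0 CPM in conduit. Injury sample 1 was well below the other 5 libraries, and the log2 fold change was 0.17 (SE 0.11). Plod2 stood at 22.4, 33.9 and 24.8 CPM in injury and at 24.0, 24.2 and 22.3 CPM in conduit. Its high injury mean came from injury sample 2: the log2 fold change was -0.20 (SE 0.16) with all libraries and -0.0060 without that one. Plod3 stood at 44.6, 43.3 and 46.2 CPM in injury and at 53.8, 49.3 and 51.0 CPM in conduit. Its groups did not overlap, with a gap of 3.10 CPM, and the log2 fold change was 0.20 (SE 0.08). Colgalt1, the galactosyltransferase that puts the first sugar on hydroxylysine, stood at 64.5, 54.4 and 54.1 CPM in injury and at 57.7, 51.2 and 56.5 CPM in conduit (log2 fold change -0.06, SE 0.10). Without injury sample 1, its highest library, the Colgalt1 log2 fold change was 0.03.

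Of the 10 members, 7 had higher and 3 had lower means in conduit, where 50.5% of all tested genes were higher. The median log2 fold change of the members was 0.12 and that of all tested genes was 0.0017. Every conduit library exceeded every injury library for 3 members, as it did for 5.41% of all tested genes. Every conduit library was below every injury library for 0 members and for 4.22% of tested genes. The edgeR quasi-likelihood test with Benjamini-Hochberg adjustment called 0 members at an adjusted p under 0.05, where it called 0.00607% of tested genes. Serpinh1, P4ha1 and Plod3 were the 3 with an unadjusted edgeR p under 0.05, a mark reached by 5.35% of tested genes. DESeq2 called 2 members, Serpinh1 and P4ha1, where it called 1.23% of the 17126 genes it gave an adjusted p, and limma-voom called 0. The members were chosen on this contrast, so nothing is read from these counts.

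**Figure D2:**
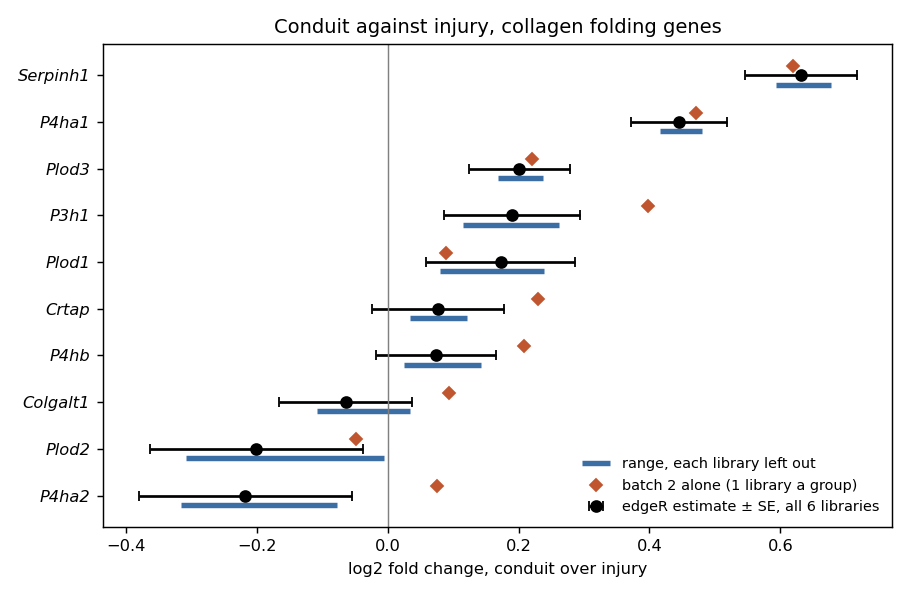
Log2 fold change of conduit over injury (horizontal axis) for each gene, with black points and bars for the edgeR estimate ± SE from all 6 libraries, blue lines for the range of estimates with each library left out, and orange diamonds for batch 2 alone. Serpinh1 stays between 0.59 and 0.68 and P4ha1 between 0.42 and 0.48 with any library left out, whereas the blue line of Colgalt1 spans 0.

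Batch 2 held 1 library of each group and so gives a value with no spread. In it the log2 difference was 0.62 for Serpinh1, 0.47 for P4ha1 and 0.22 for Plod3, beside 0.63, 0.45 and 0.20 with all libraries. It was 0.40 for P3h1, 0.23 for Crtap and 0.21 for P4hb, each larger than with all libraries, and 9 of the 10 members were higher in the conduit library of that batch, where 49.8% of all tested genes were. Plod2, at -0.05, was the exception. The members were chosen on a contrast that includes these libraries, so nothing is read from that count. With batch as a covariate in the fit, the Serpinh1 estimate was 0.62 with an SE of 0.18 and the P4ha1 estimate 0.47 with an SE of 0.17. With the labelled day as a covariate they were 0.63 (SE 0.20) and 0.44 (SE 0.18).

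Marker sums of some other cell types differed with the groups. The 15 myelinating Schwann cell markers summed to between 32680 and 40580 CPM in injury and to between 46960 and 54820 CPM in conduit, with 13 of 15 higher in conduit and no overlap of the sums. The 10 erythroid markers summed to 4484 to 5352 CPM in injury and to 513 to 1274 CPM in conduit, with 10 of 10 lower. Neutrophil markers summed to 54.0 to 649 CPM in injury and 11.1 to 33.1 CPM in conduit, with 8 of 8 tested lower. Bone and cartilage markers were lower for 13 of 13 tested and dividing-cell markers for 10 of 10, with overlapping sums. Skeletal muscle markers were higher for 8 of 8 tested, also with overlapping sums. Fibroblast markers, from the cells that make most fibrillar collagen, summed to 1205 to 1632 CPM in injury and 1223 to 2139 CPM in conduit, with 9 of 13 higher. Endothelial markers summed to 323 to 398 CPM in injury and 323 to 456 CPM in conduit, and mural cell markers to 280 to 502 CPM and 264 to 491 CPM. The part of any of these cell types in the member values was not tested. Per 100 FPKM, a level per kilobase of gene, of the summed Schwann cell markers, Serpinh1 stood at 0.676, 0.824 and 0.751 in injury and at 0.850, 0.881 and 0.753 in conduit. By that measure the groups overlapped. On the same scale P4ha1 was 0.144 ± 0.0176 in injury and 0.139 ± 0.00727 in conduit.

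Injury samples 2 and 3 stood apart by bone, cartilage and dividing-cell markers, the last at 111 and 70.7 CPM against 15.7 to 23.3 CPM elsewhere. Leaving both out was a choice made after seeing the data, and it leaves injury sample 1 as the only injury library. The log2 difference was then 0.67 for Serpinh1, 0.48 for P4ha1 and 0.20 for Plod3. It changed sign for P4hb, to -0.04, and for Plod2, to 0.07. P4ha2 and Plod2 had their highest library in injury sample 2. Neutrophil markers were also highest there, at 649 CPM. They summed to 54.0 and 123 CPM in injury samples 1 and 3 and to 11.1 to 33.1 CPM in conduit. Dividing-cell, mural cell (502 CPM) and erythroid (5352 CPM) markers were highest in injury sample 2 too. Fibroblast and endothelial markers, at 1632 and 398 CPM, were highest among injury libraries there but lower than in conduit samples 1 and 2. The part of these cells in the P4ha2 and Plod2 values was not tested.

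Levels per gene length, which were not used to choose the members, differed widely among them. Over the 6 libraries Serpinh1 averaged 150 FPKM ± 34.0 (SD, n = 6) and ranked at 424 among the 16478 tested genes. Each SD here spans both groups. Serpinh1 stood at 113 to 128 FPKM in injury and at 168 to 196 FPKM in conduit. P4hb followed at 97.2 ± 5.25 FPKM. These 2 genes held 40.9% and 26.5% of the summed FPKM of the members. P4ha1 averaged 26.7 ± 4.20 FPKM, Plod1 23.5 ± 2.79, Colgalt1 18.7 ± 1.51 and Plod3 17.4 ± 1.34. P3h1 averaged 11.4 ± 1.13 FPKM and Crtap 10.6 ± 0.798. Ppib, whose product is the third protein of their complex, averaged 130.3 FPKM, far above both. Plod2, at 6.91 ± 1.43 FPKM, and P4ha2, at 4.61 ± 0.856, were the lowest, and P4ha2 ranked at 8569.

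Neighbours in this order were compared within libraries by an exact two-sided sign-flip permutation test on log2(FPKM + 0.1). The order came from the means of the same 6 libraries, so the sign of each mean difference was fixed beforehand. In 5 of the 9 neighbouring pairs the order was the same in all 6 libraries: Serpinh1 over P4hb, P4hb over P4ha1, Plod3 over P3h1, Crtap over Plod2 and Plod2 over P4ha2. Each of these gave p = 0.0312, the smallest that 6 libraries allow, and an exact permutation adjusted p of 0.0562 over the 9 pairs. The widest step was from P4hb down to P4ha1, at 1.88 ± 0.223 on the log2 scale. The other 4 pairs changed order between libraries. P4ha1 was above Plod1 in 4 of 6 libraries (mean log2 difference 0.18, exact permutation adjusted p = 0.141) and Plod1 above Colgalt1 in 5 of 6 (0.32, exact permutation adjusted p = 0.0938). Colgalt1 was above Plod3 in 4 of 6 (0.10, exact permutation adjusted p = 0.250), and P3h1 above Crtap in 4 of 6 (0.10, exact permutation adjusted p = 0.141). None of the 9 passed an adjusted p of 0.05.

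**Figure D3:**
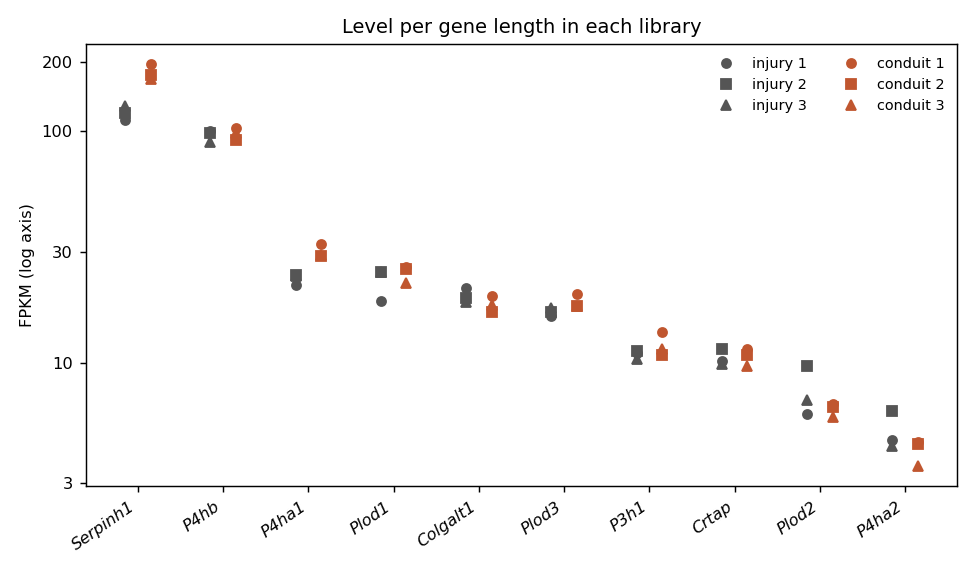
FPKM on a log axis for each gene, ordered by the mean over 6 libraries, with injury libraries in grey and conduit libraries in orange and marker shape for the sample number. Serpinh1 and P4hb stand above the other 8 genes in every library, and P4ha1, Plod1, Colgalt1 and Plod3 lie close together.

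Ratios between partners, taken within each library on FPKM, compare transcripts in whole tissue and do not measure the make-up of the enzymes. They use the same contrast as the choice of members and are a description. The ratio of P4ha1 to P4ha2 was 4.68, 3.87 and 5.45 in injury and 7.17, 6.53 and 8.22 in conduit, with no overlap. The P4ha1 transcript was thus above that of P4ha2 in every library, by the widest margin in conduit. P4ha3, which encodes another alpha subunit, was not part of these ratios. The ratio of P4ha1 to the beta subunit P4hb was 0.240 ± 0.0233 in injury and 0.309 ± 0.0109 in conduit, also without overlap. Serpinh1 stood at 1.12, 1.22 and 1.42 times P4hb in injury and at 1.89, 1.92 and 1.70 times in conduit. The ratio of P3h1 to Crtap overlapped, at 1.04 ± 0.0545 in injury and 1.12 ± 0.106 in conduit. The ratio of Plod1 to Plod2 was 3.06 ± 0.518 in injury and 3.88 ± 0.0696 in conduit, where injury sample 2 gave the lowest value, 2.53.

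Set against the collagen chains, the client proteins, Serpinh1 had a higher mean ratio in conduit for both basement membrane and fibrillar collagen. The groups overlapped only for the fibrillar ratios. The ratio of Serpinh1 to Col4a1 was 1.91, 1.82 and 1.86 in injury and 2.25, 2.03 and 2.23 in conduit, with no overlap. To the summed FPKM of the 8 basement membrane chains it was 0.803 ± 0.0557 and 0.938 ± 0.0689, again with no overlap. To the summed FPKM of the 11 fibrillar chains it was 0.279, 0.132 and 0.181 in injury and 0.221, 0.229 and 0.315 in conduit. There the means were 0.197 ± 0.0747 in injury and 0.255 ± 0.0517 in conduit, and the groups overlapped through injury sample 1. Col1a1, a chain of type I collagen, stood at 683, 1526 and 1406 CPM in injury and at 1339, 1112 and 975 CPM in conduit. Its 2 high injury libraries, samples 2 and 3, were those with bone and cartilage markers at 322 and 386 CPM, against 111 CPM in injury sample 1. Conduit samples 1 to 3 had these markers at only 110, 76.5 and 112 CPM, and each had more Col1a1 than injury sample 1. The part of those cells in the Col1a1 values was not tested.

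**Figure D4:**
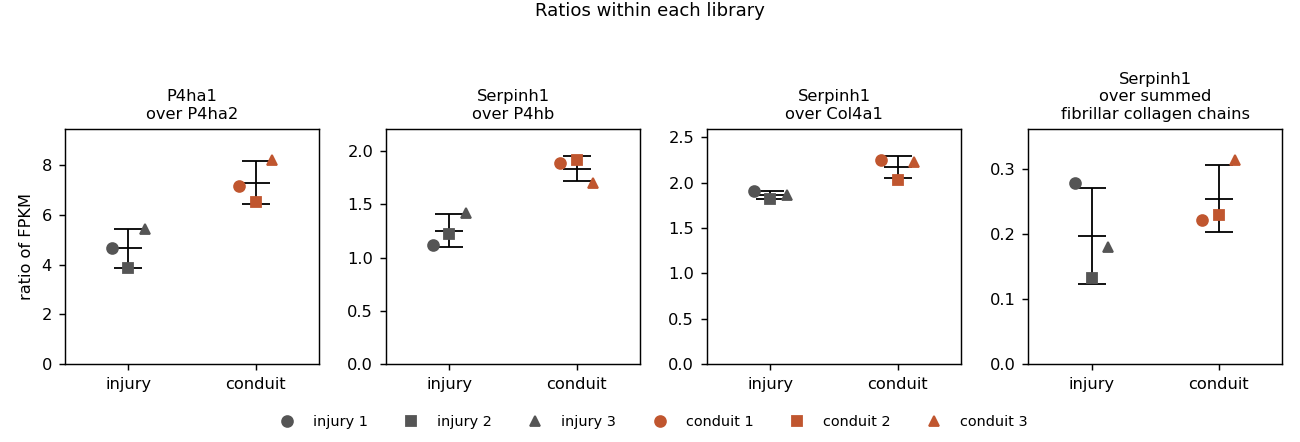
Ratios of FPKM within each library (vertical axes, from 0) for P4ha1 over P4ha2, Serpinh1 over P4hb, Serpinh1 over Col4a1 and Serpinh1 over the summed fibrillar collagen chains, with injury in grey, conduit in orange and black bars for mean ± SD. The first 3 ratios do not overlap between groups, with conduit higher, and the last overlaps, with injury sample 1 at 0.279.

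Likeness to Serpinh1 and P4ha1 was measured as the root mean square difference of log2 CPM, centred over the 6 libraries, among genes whose mean log2 CPM was 3 or more. Among 10739 genes outside the list, the 5 nearest to Serpinh1 were Mlip (0.087), Hacd4 (0.089), Psme1 (0.093), Mboat1 (0.096) and Faxdc2 (0.097). Hacd4 acts in fatty acid elongation, Mboat1 is an acyltransferase of membrane phospholipids and Psme1 is a proteasome activator subunit. Hacd4 stood at 22.8, 24.7 and 22.3 CPM in injury and at 39.9, 35.1 and 33.8 CPM in conduit. The 5 nearest to P4ha1 were Emp2 (0.047), Bcar3 (0.053), Paqr6 (0.061), Osbpl5 (0.064) and Rcn1 (0.066). Emp2, a membrane protein with 4 spans, stood at 89.1, 88.7 and 84.5 CPM in injury and at 126, 118 and 121 CPM in conduit. Rcn1, a calcium-binding protein of the endoplasmic reticulum, stood at 176, 161 and 176 CPM in injury and at 236, 216 and 214 CPM in conduit. These genes were ranked on the same libraries, so their group differences are given without a test.

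Among the members themselves, P4ha1 was nearest to Serpinh1, with a difference of 0.10 and rank 8 among 10748 genes. Plod3 was next, at 0.22 and rank 306, followed by P3h1 at 0.24 and rank 550. The other prolyl and lysyl isoforms were far off, with P4ha2 at 0.46 and rank 9723 and Plod2 at 0.45 and rank 9588. Measured from P4ha1, Serpinh1 was at rank 55 and Plod3 at rank 141. Serpinh1 and P4ha1 were both chosen as higher in conduit in these libraries, which favours a small distance between them. The distances are a description.

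The rest of the collagen pathway was read from 13 lists of related genes, which hold 210 tested genes and none of the members. The edgeR test, adjusted over all tested genes, called 0 of the 210. An unadjusted edgeR p under 0.05 was reached by 15 higher and 1 lower in conduit, 7.62% of them, against 5.35% of all tested genes. DESeq2 called 4, all higher in conduit: Col4a1, Col2a1, Calr and Tgfbr2. Over all genes it called 1.23% of the 17126 it gave an adjusted p, 112 of them higher and 98 lower. Limma-voom called 0.

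Among other genes of collagen folding the median difference was small in the fit without covariates. Of 17 tested, 12 were higher and 5 lower in conduit, with a median log2 fold change of 0.03 and 1 at an unadjusted p under 0.05. With 1 library left out the median was 0.04 to 0.13, the highest without injury sample 1. With batch as a covariate it was 0.16, and with day 0.21. The gene under 0.05 was Sparc, a collagen-binding protein of the matrix, at 2581, 2689 and 2686 CPM in injury and 3097, 3007 and 3204 CPM in conduit (log2 fold change 0.23, SE 0.08; edgeR adjusted p = 0.824). Its groups did not overlap. Ppib, the cyclophilin that partners P3h1 and Crtap, was 107 ± 5.62 CPM in injury and 112 ± 5.56 CPM in conduit (edgeR adjusted p = 1.0). Kdelr3, a receptor that returns proteins to the endoplasmic reticulum, stood at 44.9, 37.2 and 35.5 CPM in injury and at 46.5, 45.1 and 49.1 CPM in conduit (edgeR adjusted p = 0.941).

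Export and processing of procollagen showed no called gene. The 18 export genes, which build the coat and the large carriers that leave the endoplasmic reticulum, had a median log2 fold change of -0.02, with 8 higher and 10 lower and 0 at an unadjusted edgeR p under 0.05. That median was above 0 when injury sample 1 (0.04) or conduit sample 2 (0.0041) was left out, and -0.04 when injury sample 3 was. Sar1a, the GTPase that starts the coat, was 139 ± 12.1 CPM in injury and 142 ± 9.10 CPM in conduit (edgeR adjusted p = 1.0). The 12 tested genes of trimming and crosslinking had a median of -0.05, with 4 higher and 8 lower and 0 at an unadjusted edgeR p under 0.05. Bmp1, which trims the procollagen end piece, was 37.9 ± 15.9 CPM in injury and 37.4 ± 14.8 CPM in conduit (edgeR adjusted p = 1.0). The spread of these genes between libraries was wide, and their median ran from -0.30 without injury sample 1 to 0.22 without injury sample 2. It was also above 0, at 0.18, without conduit sample 3, and was 0.43 without injury samples 2 and 3.

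Collagen chains were counted by class. The 8 basement membrane chains had a median log2 fold change of 0.32, with 7 higher in conduit and 3 at an unadjusted p under 0.05. That median was 0.12 without conduit sample 1, its lowest value with any library left out. Col4a1 stood at 394, 414 and 443 CPM in injury and at 564, 580 and 522 CPM in conduit (log2 fold change 0.41, SE 0.09; edgeR adjusted p = 0.533, DESeq2 adjusted p = 0.00156), with no overlap. Col4a2, its partner chain, was 286 ± 29.9 CPM in injury and 359 ± 22.7 CPM in conduit (log2 fold change 0.33, SE 0.11; edgeR adjusted p = 0.792). The 11 fibrillar chains had a median of 0.0079, with 6 higher and 5 lower, and it ran from -0.24 without injury sample 1 to 0.26 without conduit sample 3. Without injury samples 2 and 3, the libraries high in bone and cartilage markers, it was 0.74, with injury sample 1 as the only injury library. Col1a2 was 959 ± 338 CPM in injury and 964 ± 213 CPM in conduit (edgeR adjusted p = 1.0). Col2a1, the collagen of cartilage, was 49.2 ± 6.06 CPM in injury and 75.1 ± 13.5 CPM in conduit (log2 fold change 0.61, SE 0.16; edgeR adjusted p = 0.627, DESeq2 adjusted p = 0.0404). The 23 tested chains of other classes had a median of 0.13, with 16 higher and 7 lower and 0 at an unadjusted edgeR p under 0.05, and it was below 0 when injury sample 1 (-0.10) or conduit sample 1 (-0.06) was left out. With injury samples 2 and 3 both left out it was 0.77.

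**Figure D5:**
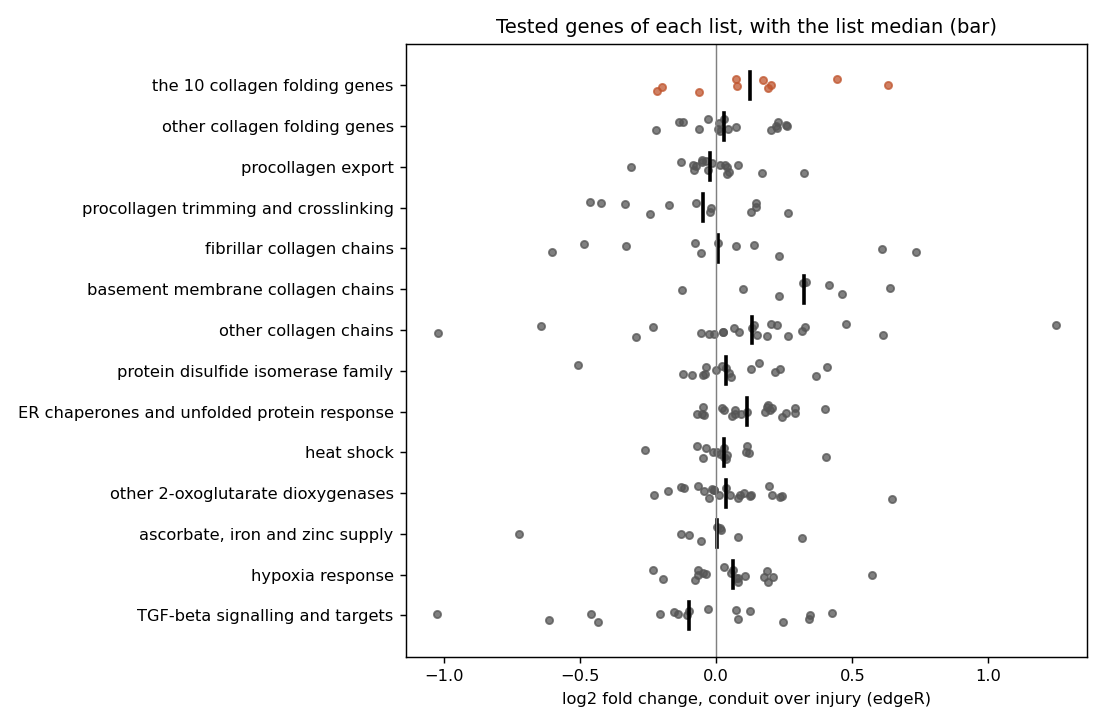
Log2 fold change of conduit over injury (horizontal axis, edgeR) for each tested gene, by list, with a black bar for the list median and the 10 collagen folding genes in orange at the top. The basement membrane collagen chains have a median of 0.32, and the fibrillar chains have a median of 0.0079 with genes on both sides of 0.

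Most genes of general folding in the endoplasmic reticulum had higher means in conduit. Of 21 chaperone and unfolded protein response genes, 17 were higher and 4 lower, with a median log2 fold change of 0.11, and 4 had an unadjusted p under 0.05, all higher. With injury sample 1 left out the median was 0.24, with injury sample 3 left out 0.07, and with both injury samples 2 and 3 left out 0.0013. Calr, a calcium-binding chaperone of glycoproteins, stood at 424, 365 and 401 CPM in injury and at 531, 478 and 560 CPM in conduit (log2 fold change 0.40, SE 0.10; edgeR adjusted p = 0.627, DESeq2 adjusted p = 0.0366). Hspa5, the chaperone BiP, was 302 ± 19.7 CPM in injury and 360 ± 31.5 CPM in conduit (log2 fold change 0.25, SE 0.10; edgeR adjusted p = 0.901). The 17 tested disulfide isomerase relatives of P4hb had a median of 0.03, with 11 higher and 6 lower, 2 of them at an unadjusted p under 0.05. It was 0.0030 without injury sample 2 and 0.07 without injury sample 1. Among the genes under 0.05 was Ero1b, which reoxidises these isomerases, at 18.6 ± 0.988 CPM in injury and 24.0 ± 1.43 CPM in conduit (log2 fold change 0.37, SE 0.10; edgeR adjusted p = 0.666). The 15 heat shock genes had a median of 0.03, with 10 higher and 5 lower and 1 at an unadjusted p under 0.05. The heat shock median was -0.08 without conduit sample 3 and -0.01 without injury sample 2. Hspa8, the constitutive cytosolic chaperone, was 2376 ± 24.6 CPM in injury and 2381 ± 169 CPM in conduit (edgeR adjusted p = 1.0).

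Oxygen and cofactor genes, which bear on the substrates of the hydroxylases, showed no called gene in edgeR, DESeq2 or limma-voom. The 23 tested other dioxygenases that use 2-oxoglutarate had a median log2 fold change of 0.04, with 13 higher and 10 lower and 1 at an unadjusted p under 0.05. The median was 0.09 without injury sample 2 and 0.02 without injury sample 1. The gene under 0.05 was Egln3, an oxygen-sensing hydroxylase, at 9.62 ± 0.932 CPM in injury and 15.1 ± 5.91 CPM in conduit (edgeR adjusted p = 0.931). Conduit samples 1 to 3 stood at 10.8, 21.8 and 12.6 CPM for Egln3. Conduit sample 2 was also the library highest in skeletal muscle markers, and the part of muscle in this value was not tested. The 19 hypoxia response genes had a median of 0.06, with 12 higher and 7 lower and 1 at an unadjusted p under 0.05. With 1 library left out it ran from 0.0028 without injury sample 2 to 0.10 without injury sample 1. The gene under 0.05 was Ndrg1, at 901 ± 27.5 CPM in injury and 1041 ± 62.6 CPM in conduit (log2 fold change 0.21, SE 0.08; edgeR adjusted p = 0.915). The 9 tested genes of ascorbate, iron and zinc supply had a median of 0.0023, with 5 higher and 4 lower, and it ran from -0.06 to 0.02 with single libraries left out, lowest without conduit sample 3. Slc40a1, the iron exporter, was the 1 with an unadjusted p under 0.05, at 13.1 ± 4.87 CPM in injury and 7.91 ± 0.841 CPM in conduit (log2 fold change -0.73, SE 0.27; edgeR adjusted p = 0.894). The 17 genes of TGF-beta signalling, a pathway that drives matrix production, had a median of -0.10, with 7 higher and 10 lower and 1 at an unadjusted p under 0.05. The median was above 0 when injury sample 2 (0.13), conduit sample 3 (0.0090) or both injury samples 2 and 3 (0.16) were left out. The gene past that mark was the receptor Tgfbr2, at 157, 160 and 152 CPM in injury and 217, 190 and 187 CPM in conduit (log2 fold change 0.34, SE 0.09; edgeR adjusted p = 0.650, DESeq2 adjusted p = 0.0419).

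Promoter sequence was read for all 10 members from the RefSeq promoter table of build GRCr8, a later build than the one named for the counts. Shown are the 250 bases before the start of the 3 members whose groups did not overlap, and of P4ha2, the paralog of P4ha1 whose groups did. Sequences run 5′ to 3′ on the strand of the gene. Capitals mark the hypoxia core (ACGTG or GCGTG), the CCAAT box (CCAAT), the GC box (GGGCGG) and the heat shock pair (TTCNNGAA), on either strand.
Serpinh1, chr1:163062977-163063226, minus strand: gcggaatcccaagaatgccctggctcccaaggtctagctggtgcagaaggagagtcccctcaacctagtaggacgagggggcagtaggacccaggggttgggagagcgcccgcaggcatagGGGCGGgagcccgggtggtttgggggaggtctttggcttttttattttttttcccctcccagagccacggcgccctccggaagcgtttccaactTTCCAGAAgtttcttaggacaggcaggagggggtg
P4ha1, chr20:27844796-27845045, plus strand: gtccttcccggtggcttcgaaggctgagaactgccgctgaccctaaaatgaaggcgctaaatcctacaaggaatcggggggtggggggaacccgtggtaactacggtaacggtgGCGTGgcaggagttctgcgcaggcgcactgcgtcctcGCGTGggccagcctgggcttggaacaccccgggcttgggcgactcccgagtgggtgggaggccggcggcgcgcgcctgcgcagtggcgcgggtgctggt
Plod3, chr12:25323632-25323881, minus strand: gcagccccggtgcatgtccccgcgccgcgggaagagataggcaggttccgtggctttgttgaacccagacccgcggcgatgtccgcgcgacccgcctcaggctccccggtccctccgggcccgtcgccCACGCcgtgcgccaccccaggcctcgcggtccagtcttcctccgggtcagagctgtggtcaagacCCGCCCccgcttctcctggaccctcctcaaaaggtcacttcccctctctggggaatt
P4ha2, chr10:38743644-38743893, plus strand: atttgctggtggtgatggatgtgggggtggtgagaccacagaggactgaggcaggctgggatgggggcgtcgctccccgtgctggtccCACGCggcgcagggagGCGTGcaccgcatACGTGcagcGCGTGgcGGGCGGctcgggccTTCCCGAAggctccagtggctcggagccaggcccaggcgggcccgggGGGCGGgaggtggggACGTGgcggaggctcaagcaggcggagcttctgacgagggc

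The Serpinh1 window held 1 heat shock pair of the searched form, TTCNNGAA, from 35 to 28 bases before the start. It also held 1 GC box, from 129 to 124 bases before the start, and no hypoxia core. The heat shock pair of that form was present in 4 of 10 members, Serpinh1, P4ha2, Plod2 and Colgalt1, and in 7.35% of 27457 promoters. Pairs with the TTC and GAA units in reverse order were not searched, so these counts leave them out. In the printed Serpinh1 sequence the capitalised pair runs on into such a reversed pair, which was not counted. P4ha1 held 2 hypoxia cores, from 136 to 132 and from 99 to 95 bases before the start, and no GC box. P4ha2 held 5 hypoxia cores and 2 GC boxes, and Plod3 held 1 of each. The hypoxia core was found in 8 of 10 members, all but Serpinh1 and P4hb, and in 37.6% of promoters. The GC box was found in 9 of 10 members and in 32.1% of promoters, and the CCAAT box in 2 of 10, P4hb and P3h1, and in 34.2% of promoters. GC content of the members' windows ran from 57.2% for Crtap to 74.8% for Plod2, which are percentiles 67.3 and 96.6 of all promoters. Every member window was thus richer in GC than most promoters. The GC box and the hypoxia core are themselves rich in G and C, and no motif share was adjusted for GC content.

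The CCACG letters, the second part of the ER stress element, were found in 9 of 10 members and in 27.8% of promoters, and on the opposite strand they can overlap the hypoxia core. The whole element, CCAAT and CCACG with 9 bases between, was found in 0 members and in 0.0692% of promoters. The TGACGT letters and the GTCTAGAC letters were found in 0 members, against 7.19% and 0.182% of promoters, and TATAAA was found in 1 member, Crtap, and in 13.2% of promoters. A match of letters in this window is a description and not a site. The members whose groups did not overlap shared no searched motif that the others lacked.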

How the data were processed

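RNA-seq of 6 rat trigeminal ganglion samples was analysed from deposited tables. Counts were deposited per gene symbol, as whole reads. The FPKM values deposited by the authors were derived from the same counts: over 15192 genes with at least 10 counts in every library, both gave the same length to within 0.0001, so FPKM is no independent measurement. Fastp, HISAT2, SAMtools, HTSeq, DESeq2 and build mRatBN7.2 are named in the submitters' processing notes; their versions, the annotation and the strandedness were not given in the sources used here, so reads of overlapping or antisense genes cannot be told apart. Libraries held 40172473 to 41903629 counts, and gene-level error was taken from the samples.

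Groups came from sample titles. In R 4.3.3, genes were kept by filterByExpr of edgeR 4.0.16 (minimum 10 counts), scaled by TMM and tested with robust quasi-likelihood F statistics, without covariates, and Benjamini-Hochberg adjustment over all 16478 genes, threshold 0.05. An exact permutation test on 3 against 3 libraries gives no p under 0.1. SE is the log2 fold change over the root of F. Alternatives used DESeq2 1.42.0, limma 3.58.1 (voom, or log2 FPKM), other scalings and filters, batch, day, a replicate block, each library left out, batch 2 alone and, chosen after seeing the data, injury samples 2 and 3 left out. The edgeR fit was tested on simulated data. Log2 CPM used a prior count of 2.

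The members and gene lists were chosen with earlier results of these data known. Named genes were the 10 members, the 3 of each list with the highest FPKM and the 2 with the smallest p, not all of which are printed, and the 5 nearest to Serpinh1 and to P4ha1. Motifs were chosen after the values were seen.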

Additional observations from a re-analysis of the deposited data

How the results depend on the processing

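The number of genes called over the whole table was 1 by edgeR. It was 6 with no low-count filter, 210 with DESeq2, 7 and 3 with limma at FPKM pseudocounts of 1 and 0.1, 23 without injury samples 2 and 3, and 0 with batch or labelled day as a covariate. Leaving out 1 library at a time gave 0 (conduit sample 3) to 38 (injury sample 1), with 35 for injury sample 3 and 6 for conduit sample 1. The number called among the 210 related genes was 0, and 4 with DESeq2. Some list medians moved with batch or day as a covariate. The basement membrane median went from 0.32 to 0.84 with batch and 1.17 with day. In that order, TGF-beta went from -0.10 to 0.31 and 0.12, and heat shock from 0.03 to -0.11 and -0.13. Hypoxia went from 0.06 to -0.05 and -0.06, and the fibrillar median was 0.0034 and -0.0024. The labels give both groups the replicate numbers 1 to 3. Same-numbered libraries did not deviate together (correlations over genes of -0.417, 0.0574 and -0.0715). Deviations were taken from the mean of only 3 libraries a group, so this check cannot decide whether the numbers pair them. With a replicate block edgeR called 0 genes.

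The median log2 fold change of the 10 members was 0.12. It was 0.21 with batch as a covariate, 0.22 with day, 0.21 in batch 2 alone, and 0.069 and 0.073 with limma at FPKM pseudocounts of 1 and 0.1. Of the members, 3 were higher in every conduit library. The count was 9 in batch 2 alone, where there is 1 library a group and 49.8% of all genes were higher. Leaving out 1 library gave 3 to 5: 5 without conduit sample 3 (14.1% of all genes), and 4 without injury sample 1 (11.3%) or conduit sample 2 (7.69%). Serpinh1 (0.57 to 0.68), P4ha1 (0.38 to 0.48) and Plod3 (0.14 to 0.24) kept their sign in all 20 alternatives, as did P3h1, Crtap and Plod1. P4hb and Plod2 kept it in 19, P4ha2 in 17 and Colgalt1 in 16, and the cause was not tested. No neighbouring pair of levels passed under a pseudocount of 0.01 or 1 or with TMM-scaled CPM per kilobase. With a library left out the test could give no p under 0.0625.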
